A study of Danio rerio with 4 samples.

Results

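Translation initiation factors (eIFs) and elongation factors (eEFs) are the proteins that bring ribosomes to the start codon and then drive them along the mRNA. The genes described here are all those on the array with at least 1 probe whose deposited gene name, or whose current RefSeq symbol, starts with eif or eef followed by a digit. This gave 71 of 21495 probes, for 46 of 8753 named genes, and 18 of the 46 genes carried such a name in the deposited files themselves. Of the 46 genes, 45 were bright enough to be tested, out of 7081 genes tested in all. The exception was eif4e1b, a cap-binding protein of the eIF4E family, which was not well above background on any of the 4 arrays. The other 69 probes were well above background on all 4 arrays, and none was saturated.

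RNA came from GFP-positive retinal cells of zebrafish and was hybridised to single-colour Agilent arrays, 1 array per sample. Progenitors (n = 2) were sorted 4 days after injury from the 1016 tuba1a:gfp line, in which the tuba1a promoter drives GFP, from fish aged 7 and 8 months whose retinas had been poked with a needle through the back of the eye. Uninjured Muller glia (n = 2), the radial glia of the retina and the source of the progenitors, were sorted from gfap:gfp fish aged 7 months, in which GFP is under the gfap promoter. The transgenic line and the injury differ together between the groups, so their parts cannot be told apart. The labels call the samples duplicates without saying whether they are separate pools of fish, so the p-values rest only on how far these arrays scatter, and that scatter may be purely technical. In such bulk samples a change in the share of a cell type and a change in RNA per cell cannot be told apart.

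As background, eIF2 carries the initiator tRNA and is recharged by the exchange factor eIF2B, eIF3 is the large scaffold on the small ribosomal subunit, and the eIF4F complex binds the mRNA cap and unwinds the leader. In elongation, eEF1A delivers aminoacyl-tRNAs, eEF1B recharges eEF1A, and eEF2 moves the ribosome on by a codon. The 4E-binding proteins hold back assembly of the eIF4F complex, and the kinase eEF2K holds back eEF2. Growing and dividing cells are known for high output of this machinery.

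With each array scaled on its 75th percentile, transcripts of most translation factors were higher in progenitors than in uninjured glia, by small amounts. This majority depended on the processing. Scaling on each array's median gave 14 factor genes higher and 13 lower (31.1% and 28.9%), beside 18.3% and 60.5% of all genes tested. Normexp background correction gave 14 higher and 1 lower (31.1% and 2.22%), beside 11.6% and 16.3% of all genes tested. On the 75th-percentile scale, 25 of the 45 factor genes rose, 5 fell and 15 did not pass. The threshold was an adjusted p under 0.05 in limma's moderated test over all 16596 probes tested. For comparison, 27.5% of all genes tested were higher in progenitors and 40.4% lower, 67.9% in either direction. The median log2 difference (progenitors minus glia) was 0.18 over the factor genes and -0.11 over all genes, and 39 of the 45 factor genes lay above the median of all genes. The sizes were modest: the median absolute log2 difference was 0.27 for factor genes and 0.34 for all genes, and 2.22% of factor genes changed at least 2-fold, against 11.7% of all genes. By the brightest probe of each gene, only eef1g among the 45 passed that size, as an increase. Increases of that size were seen in 7.70% of all genes and decreases in 4.00%. A dimmer probe of eef1a1l1 also passed it (log2 difference 1.21). The progenitor and glia arrays did not overlap for 41 of the 45 factor genes, 31 higher and 10 lower, beside 88.0% of all genes (34.9% higher and 53.1% lower). Genes with the prefix were not all factors. By name, 31 were initiation factors (17 higher, 3 lower) and 6 elongation factors (4 higher, 2 lower). The other 8 were regulators or genes with only the name in common (4 higher, 0 lower). The 31 include eif4a3, eif5a, eif5a2 and eif6, whose roles, given below, are not confined to initiation.

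**Figure D1:**
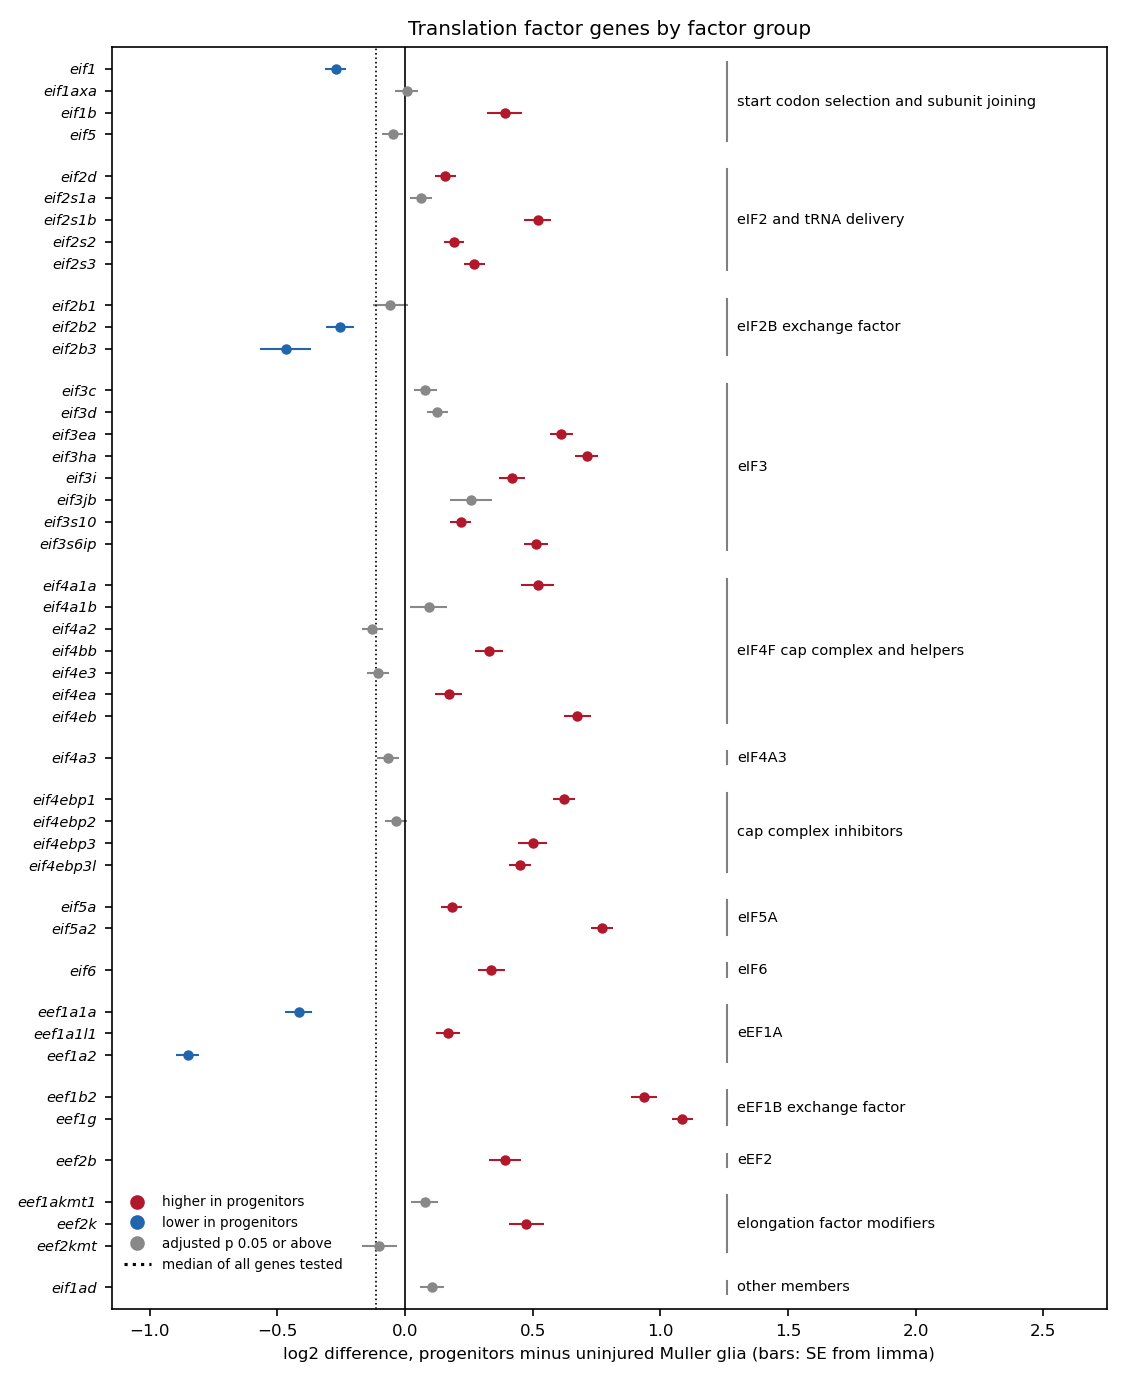
Log2 difference (progenitors minus uninjured Muller glia, x axis) of the 45 tested factor genes, grouped by factor, with bars for the standard error and a dotted line for the median of all genes tested (-0.11). The members of eIF3 lie at 0.08 to 0.71 and those of eEF1B at 0.94 and 1.09, while eef1a2 is lowest at -0.85.

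How far these counts hold depended on how the arrays were made comparable, and this bears on every small difference given here. In the values reported, each array's own 75th percentile is set to 0 on the log2 scale. Scaling on each array's median instead moved the median of all genes by -0.22 and left 14 factor genes higher and 13 lower. Scaling on the spike-in controls, which read 2873 and 2832 intensity units on the progenitor arrays and 5287 and 5723 on the glia arrays, moved it by 1.1 and made all 45 factor genes higher, along with 6555 of all 7081 genes. The median of the factor genes lay 0.30 above that of all genes as reported, a distance that scalings by 1 constant per array cannot move, and 0.27 to 0.42 above it over all 14 alternative settings (0.39 under quantile normalization and 0.42 under normexp). In every one of those settings 13 genes stayed higher in progenitors: eif2s1b, eif3ea, eif3ha, eif3i, eif3s6ip, eif4a1a, eif4eb, eif4ebp1, eif4ebp3, eif5a2, eef1b2, eef1g and eef2k. For eif4ebp3 this holds for its brighter probe only, since the probe that RefSeq assigns to that gene did not pass (-0.05 ± 0.07). How many of all genes stayed higher in every setting is not given here, so the 13 have no share beside them. That number cannot exceed the 823 of 7081 genes called higher under normexp, where 14 factor genes were. Array-median scaling ended the calls of eef2b, eif1b, eif2s3, eif4bb and eif6. It also ended those of eef1a1l1, eif2d, eif2s2, eif3s10, eif4ea and eif5a, whose differences changed sign. On that scale eef2kmt, eif1axa, eif2b1, eif4a2, eif4a3, eif4e3, eif4ebp2 and eif5 were newly called lower. Normexp ended the calls of eef2b, eif1, eif1b, eif4bb, eif4ebp3l and eif6 beside the fragile ones named below. No factor gene stayed lower in all 14, and eef1a2 was the only one lower in the 13 other than the spike-in scaling. These counts were largely set by the spike-in and normexp settings. Spike-in scaling left 160 of all 7081 genes and 0 factor genes lower, and made 92.6% of all genes higher. Normexp left 1151 of all 7081 genes lower and, of the factor genes, only eef1a2. The counts of stable increases and stable decreases are therefore not comparable.

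**Figure D2:**
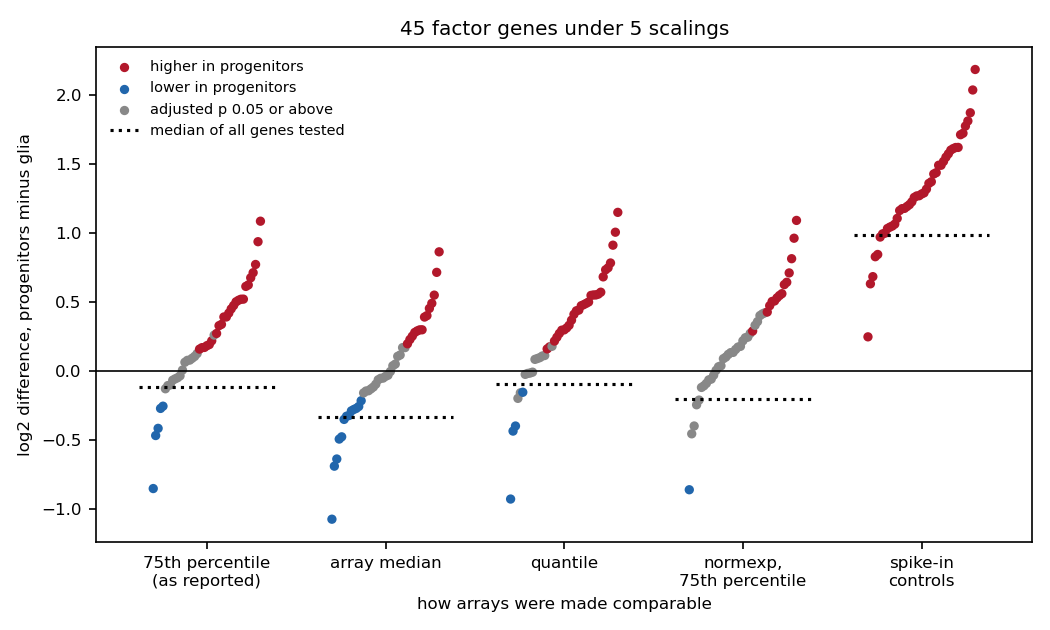
Log2 differences (progenitors minus glia, y axis) of the 45 factor genes, sorted within each of 5 scalings (x axis), with a dotted line for the median of all genes under that scaling. The whole cloud moves with the scaling, from a factor median of -0.04 on the array median to 1.28 on the spike-in controls, and its median lies 0.30 to 0.42 above the dotted line, with 39 of the 45 genes above that line as reported.

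Initiation starts with the ternary complex of eIF2, GTP and initiator tRNA. Of 5 genes in this group, 4 rose in progenitors and 1 did not pass, beside 27.5% of all genes higher and 40.4% lower. On the array-median scale only 1 of the 5 stayed higher, beside 18.3% of all genes, and the group median was -0.03. Under normexp 2 stayed higher, beside 11.6% of all genes. The largest change was in eif2s1b, one of a pair of genes for the alpha subunit, whose phosphorylation by stress kinases slows initiation. Its log2 signal was 0.90 and 0.86 on the progenitor arrays, against 0.41 and 0.32 on the glia arrays. These groups did not overlap, and the difference was 0.52 ± 0.05 (SE; limma adjusted p = 0.00277). The other alpha gene, eif2s1a, read 0.36 and 0.31 in progenitors and 0.27 and 0.27 in glia by its brighter probe, which did not pass (0.06 ± 0.04), while its second probe did (0.29 ± 0.04). The gamma subunit gene eif2s3 rose by 0.27 ± 0.04 and the beta subunit gene eif2s2 by 0.19 ± 0.04, and eif2d, a separate tRNA delivery factor, by 0.16 ± 0.04. The calls of eif2s2 and eif2d were lost whichever array was left out, at differences of 0.188 to 0.194 and 0.142 to 0.175 and limma adjusted p-values of 0.063 to 0.079 and 0.0802 to 0.139.

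The exchange factor eIF2B, which reloads eIF2 with GTP, was represented by 3 of its subunits, of which none rose and 2 fell on this scale. Of all genes, 27.5% were higher and 40.4% lower on the same scale. For the gamma subunit gene eif2b3 (probe at danRer2 chr2:30144766-30144825, plus strand) the log2 signal was 0.76 and 0.82 in progenitors and 1.39 and 1.14 in glia. The glia arrays lay apart from each other by more than the progenitor arrays did, and the difference was -0.47 ± 0.10 (limma adjusted p = 0.0192). The beta subunit gene eif2b2 (danRer2 chr20:56540619-56540678, minus strand) read 1.25 and 1.15 in progenitors and 1.46 and 1.45 in glia, a difference of -0.26 ± 0.05 (limma adjusted p = 0.0177), and eif2b1, the alpha subunit gene, did not pass (-0.06 ± 0.07). These calls were fragile. That of eif2b3 was lost without progenitor array 1 or 2 and that of eif2b2 without progenitor array 2, glia array 1 or glia array 2, with differences of -0.59 to -0.34 and -0.30 to -0.21 over the 4 left-out arrays. Under normexp background correction neither passed, under quantile normalization eif2b2 did not, and on the spike-in scale both were higher in progenitors, at 0.63 for eif2b3 and 0.84 for eif2b2.

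Start codon selection gave no common direction, with 1 of 4 genes higher, 1 lower and 2 not passing. Of all genes, 27.5% were higher and 40.4% lower. The paralogs eif1 and eif1b encode the small factor that keeps the scanning ribosome from starting at the wrong codon. For eif1b the log2 signal was 2.16 and 2.01 in progenitors and 1.72 and 1.66 in glia, a difference of 0.39 ± 0.07 (limma adjusted p = 0.011), which fell short without glia array 2 (adjusted p = 0.0513). For eif1 it was 2.22 and 2.24 in progenitors and 2.50 and 2.50 in glia, a difference of -0.27 ± 0.04 (limma adjusted p = 0.00751) that was turned to 0.83 by the spike-in scaling. A second, dimmer probe of eif1 gave a larger decrease (-0.96 ± 0.04). The genes for eIF1A (eif1axa, 0.01 ± 0.04) and eIF5 (eif5, -0.05 ± 0.04) did not pass.

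Of the 8 tested members of the scaffold eIF3, 5 rose and none fell on this scale, beside 27.5% of all genes higher and 40.4% lower. The progenitor arrays lay above the glia arrays for all 8, as they did for 34.9% of all genes. The median log2 difference of the group was 0.34, and 4 of the 8 stayed higher under array-median scaling, beside 18.3% of all genes. The gene for subunit h, eif3ha, read 0.82 and 0.87 in progenitors and 0.12 and 0.14 in glia, a difference of 0.71 ± 0.05 (limma adjusted p = 0.000944). The gene for subunit e, eif3ea (danRer2 chr1:50123139-50123198, minus strand), read 3.49 and 3.55 in progenitors and 2.90 and 2.92 in glia, a difference of 0.61 ± 0.05 (limma adjusted p = 0.00131). A second probe of each moved alike, by 0.82 and 0.65, though that of eif3ha overlaps the first in position. Further subunit genes changed by less, eif3s6ip (subunit l; 0.15 and 0.20 in progenitors, -0.36 and -0.31 in glia) by 0.51 ± 0.05 and eif3i (3.22 and 3.29 in progenitors, 2.81 and 2.86 in glia) by 0.42 ± 0.05. The gene for the largest subunit, eif3s10, rose by 0.22 ± 0.04, a call that was lost whichever array was left out (0.215 to 0.221, limma adjusted p = 0.0502 to 0.0614) and was at zero under array-median scaling (-0.0037). The genes eif3jb (0.26 ± 0.08), eif3d (0.13 ± 0.04) and eif3c (0.08 ± 0.05) did not pass, although a second probe of eif3d at the same position did (0.19 ± 0.04).

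In the cap complex, 4 of 7 tested genes rose and none fell, beside 27.5% of all genes higher and 40.4% lower. Values were unlike within families. Of the cap-binding eIF4E genes, eif4eb (danRer2 chr13:12083644-12083703, plus strand) read -1.33 and -1.24 in progenitors and -1.98 and -1.94 in glia. Its groups did not overlap, and its difference of 0.68 ± 0.05 (limma adjusted p = 0.00152) was close to the 0.74 of its second probe. By contrast eif4ea changed by 0.17 ± 0.05 (1.19 and 1.1 in progenitors, 0.98 and 0.97 in glia), a call that was lost whichever array was left out (limma adjusted p = 0.0518 to 0.156), and eif4e3 did not pass (-0.11 ± 0.04). Of the helicase genes, eif4a1a (danRer2 chr7:19741913-19741972, plus strand) read 3.54 and 3.44 in progenitors and 3.02 and 2.92 in glia, a difference of 0.52 ± 0.06 (limma adjusted p = 0.00447). The helicase paralogs eif4a1b (0.09 ± 0.07) and eif4a2 (-0.13 ± 0.04) did not pass, nor did eif4a3 (-0.07 ± 0.04), which is a core protein of the exon junction complex. The helicase cofactor gene eif4bb rose by 0.33 ± 0.05. On the array-median scale the group split, with 2 higher and 2 lower, beside 18.3% of all genes higher and 60.5% lower.

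Among inhibitors of the cap complex, 3 of the 4 genes for 4E-binding proteins were higher in progenitors by their brightest probe. None was lower, beside 27.5% of all genes higher and 40.4% lower. The group median was 0.48. On the array-median scale eif4ebp2 was lower, as were 60.5% of all genes. The count of 3 and the median of 0.48 include eif4ebp3 by a probe whose gene is uncertain. With the probe that RefSeq assigns to eif4ebp3, which did not pass (-0.05 ± 0.07), both would be lower. The 4E-binding proteins hold eIF4E away from the scaffold eIF4G until mTOR phosphorylates them. The log2 signal of eif4ebp1 was 2.38 and 2.42 in progenitors and 1.76 and 1.80 in glia, a difference of 0.62 ± 0.04 (limma adjusted p = 0.00121), and its other probes gave 0.53 and 0.74. That of eif4ebp3l was 1.77 and 1.77 in progenitors and 1.31 and 1.34 in glia, a difference of 0.45 ± 0.04 (limma adjusted p = 0.0022). In contrast, eif4ebp2 read 4.06 and 4.05 in progenitors and 4.08 and 4.10 in glia and did not pass (-0.04 ± 0.04). The probe that the deposited files name eif4ebp3 changed by 0.50 ± 0.06. It lies at danRer2 chr2:31094944-31095004, next to the eif4ebp3l probes (31095358-31095417 and 31095340-31095399), whereas the probe that RefSeq assigns to eif4ebp3 lies on chromosome 21 and did not pass (-0.05 ± 0.07), so which gene the higher signal belongs to is uncertain.

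The paralogs eif5a and eif5a2 encode eIF5A, the hypusine-bearing protein that helps ribosomes through difficult stretches. Both were higher in progenitors, as were 27.5% of all genes. The log2 signal of eif5a2 (danRer2 chr2:23553780-23553839, plus strand) was 3.93 and 3.94 in progenitors and 3.14 and 3.19 in glia, a difference of 0.77 ± 0.04 (limma adjusted p = 0.000735), higher than that of 89.5% of all genes. A second probe gave 0.97. For eif5a the signal was 3.45 and 3.47 in progenitors and 3.28 and 3.27 in glia, and its difference of 0.18 ± 0.04 lost its call whichever array was left out (limma adjusted p = 0.0662 to 0.092) and was -0.04 on the array-median scale. The gene for eIF6, which keeps the ribosomal subunits apart and helps make the large one, rose by 0.34 ± 0.05, with 2.25 and 2.15 in progenitors and 1.88 and 1.85 in glia.

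By the brightest probe of each gene, the largest increases of all factor genes were in eEF1B, the exchange factor that recharges eEF1A. A dimmer probe of eef1a1l1, described below, gave a larger one (1.21). The structural gamma subunit gene eef1g (danRer2 chr14:30270487-30270546, plus strand) had log2 signals of 5.0 and 4.97 in progenitors and 3.90 and 3.90 in glia. This was a 2.12-fold increase, a log2 difference of 1.09 ± 0.04 (limma adjusted p = 0.000297). A second probe, which overlaps the first in position, gave 1.08. The catalytic subunit gene eef1b2 (danRer2 chr6:8622716-8622775, minus strand) had 4.94 and 4.87 in progenitors and 3.95 and 3.98 in glia, a 1.91-fold increase (0.94 ± 0.05, limma adjusted p = 0.000614). For both genes the groups lay far apart relative to the distance between arrays of a group. Their differences exceeded those of 93.0% and 91.8% of all genes, and both stayed higher under every scaling tried.

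**Figure D3:**
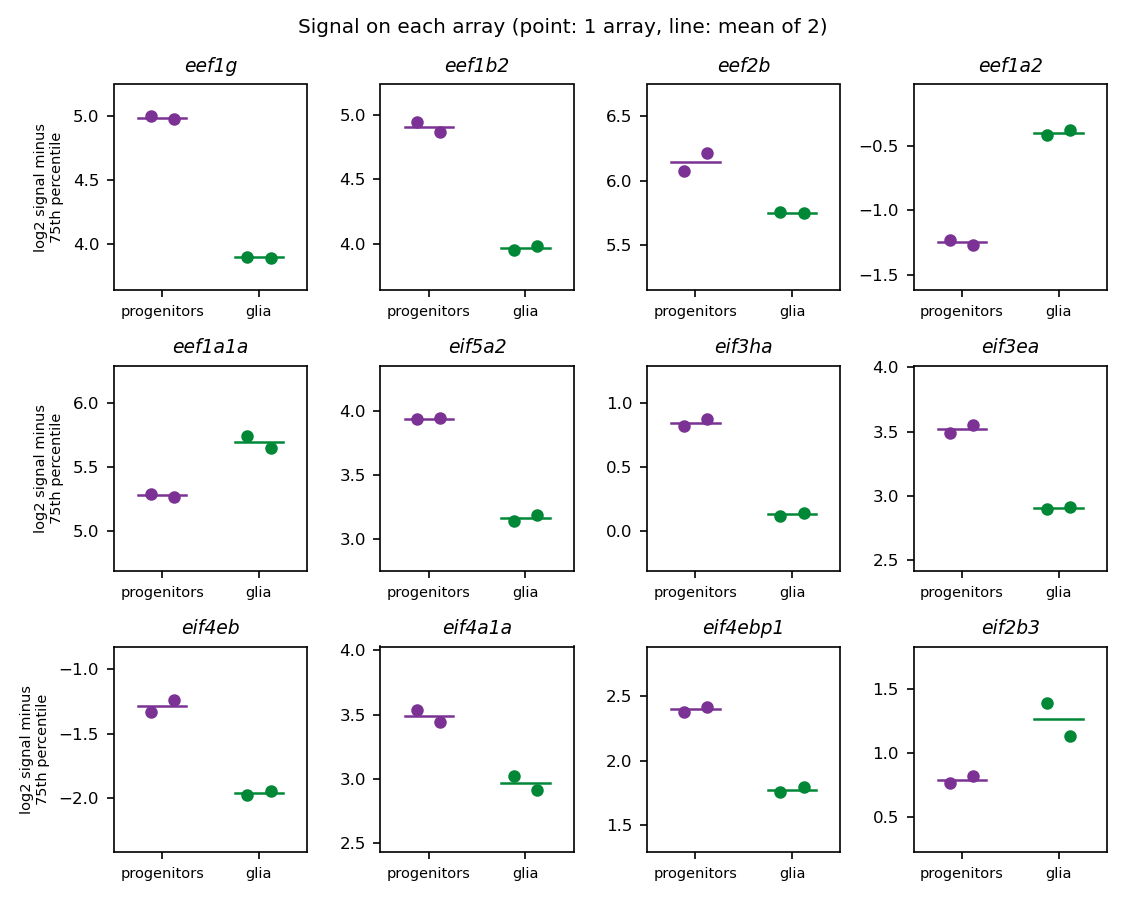
Log2 signal relative to the array's 75th percentile (y axis, each panel spanning the same range) on each array for 12 factor genes, with progenitors left and uninjured glia right in each panel. The 2 groups do not overlap for any of the 12, nor for 88.0% of all genes tested. All 12 shown were picked from called genes, a choice that favours groups lying apart. Of them eef1a2, eef1a1a and eif2b3 are lower in progenitors and the other 9 higher.

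The eEF1A genes were called in both directions on this scale, 1 higher and 2 lower, beside 27.5% of all genes higher and 40.4% lower. The gene eef1a2, whose mammalian counterpart is the form of neurons and muscle, showed the largest decrease among the brightest probes of the factor genes (danRer2 chr19:24656318-24656377, minus strand). Its log2 signal was -1.23 and -1.27 in progenitors and -0.42 and -0.38 in glia, 1.81-fold lower (-0.85 ± 0.05, limma adjusted p = 0.000614). A second probe, which overlaps the first in position, gave -0.95. Its decrease passed in all settings but the spike-in scaling, where it was 0.25. The gene eef1a1a read 5.29 and 5.27 in progenitors and 5.74 and 5.65 in glia (-0.42 ± 0.05, limma adjusted p = 0.0048). That decrease did not pass under normexp and turned to 0.68 on the spike-in scale.

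For eef1a1l1, the remaining eEF1A gene, the size of the change depended on the probe. The brighter probe read 6.06 and 6.13 in progenitors and 5.92 and 5.93 in glia (0.17 ± 0.05, limma adjusted p = 0.0399). This call was lost whichever array was left out and the difference was -0.05 on the array-median scale. The other probe read 5.17 and 5.19 in progenitors and 4.09 and 3.85 in glia, a difference of 1.21 ± 0.09 (limma adjusted p = 0.00145) and the largest of any factor probe. The translocase gene eef2b (danRer2 chr17:34697830-34697887, plus strand) read 6.07 and 6.21 in progenitors and 5.76 and 5.75 in glia (0.39 ± 0.06, limma adjusted p = 0.00924), and its dimmer probes gave 0.67 and 0.61. Under array-median scaling and under normexp eef2b did not pass.

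The kinase gene eef2k, whose product phosphorylates and stalls eEF2, was also higher in progenitors. Its brightest probe (danRer2 chr12:8379822-8379878, minus strand) read 1.77 and 1.61 in progenitors and 1.21 and 1.22 in glia (0.47 ± 0.07, limma adjusted p = 0.00667). The dimmer probes gave 0.19 ± 0.05, which passed, and 0.05 ± 0.07, which did not. The methyltransferase genes eef1akmt1 (0.08 ± 0.05) and eef2kmt (-0.10 ± 0.07) did not pass, nor did eif1ad (0.11 ± 0.05), which shares only its prefix and an eIF1A-like fold with the factors.

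Agreement between probes was checked for the 21 factor genes with several tested probes. Of all probes on the array that were tested, 65.6% passed, a share of single probes. How often the probes of a gene agree among all genes is not given here. In 17 of the 21 genes all probes had the same call, in 4 (eif2s1a, eif3d, eif4ebp3 and eef2k) some passed and others did not, and in none were probes called in opposite directions. For eif2s1a, eif3c, eif3d, eif3ha, eif4ebp3l, eef1a2 and eef1g the probes lie at the same or overlapping positions. Their agreement is therefore not an independent check. Over the 21 genes, probes differed more in size than in sign, most in eef1a1l1 (0.17 and 1.21) and eif1 (-0.27 and -0.96). Binding of a probe to a paralog's transcript was not tested.

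**Figure D4:**
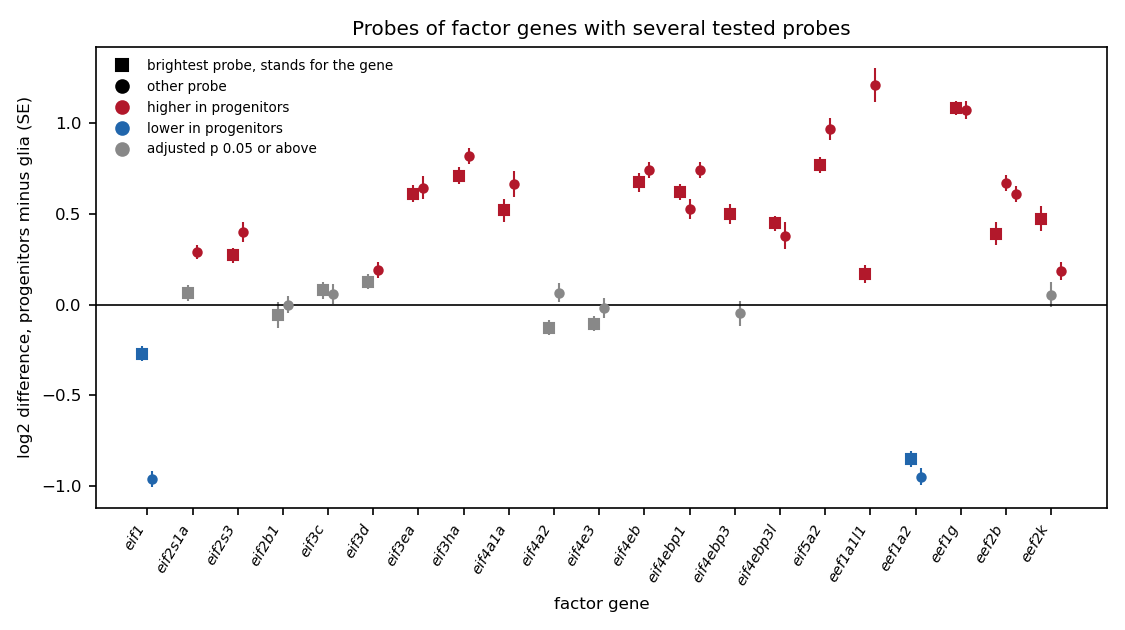
Log2 difference (progenitors minus glia, y axis, with standard error) of each probe for the 21 factor genes with several tested probes, a square marking the brightest probe and circles the others. Probes of a gene share their direction in 19 of the 21 genes, and the widest gap is in eef1a1l1, at 0.17 and 1.21. In some of these genes the probes lie at the same or overlapping positions, so their agreement is not independent.

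Because paralogs sit on the same array, the difference between them is not moved by a scaling that adds 1 constant per array (75th percentile, median or spike-in), though normexp and quantile normalization can move it. For 9 pairs, the log2 signal of the second gene was subtracted from that of the first on each array. Both the pairs and the order within each pair were chosen after their values were seen, with the gene of the higher difference first, so the common direction was fixed by that choice and only the sizes are described. The within-array difference was higher in progenitors by 1.02 for eef1a1l1 against eef1a2 (1.22 under quantile normalization) and by 0.58 for eef1a1l1 against eef1a1a. For the cap-binding pair eif4eb and eif4ea it was 0.50 (0.38 under normexp and 0.31 under quantile normalization), for eif5a2 against eif5a 0.59, and for eif4ebp1 against eif4ebp2 0.66. The value was 0.65 for eif4a1a against eif4a2, 0.43 for eif4a1a against eif4a1b, 0.46 for eif2s1b against eif2s1a and 0.66 for eif1b against eif1. Over the choices of probe the range was 0.45 to 0.80 for eif4a1a against eif4a2, 0.23 to 0.46 for the eif2s1 pair and 1.02 to 2.16 for eef1a1l1 against eef1a2. With 2 arrays a group an exact permutation test (two-sided) gave p = 0.333 for each pair, the smallest it can give.

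**Figure D5:**
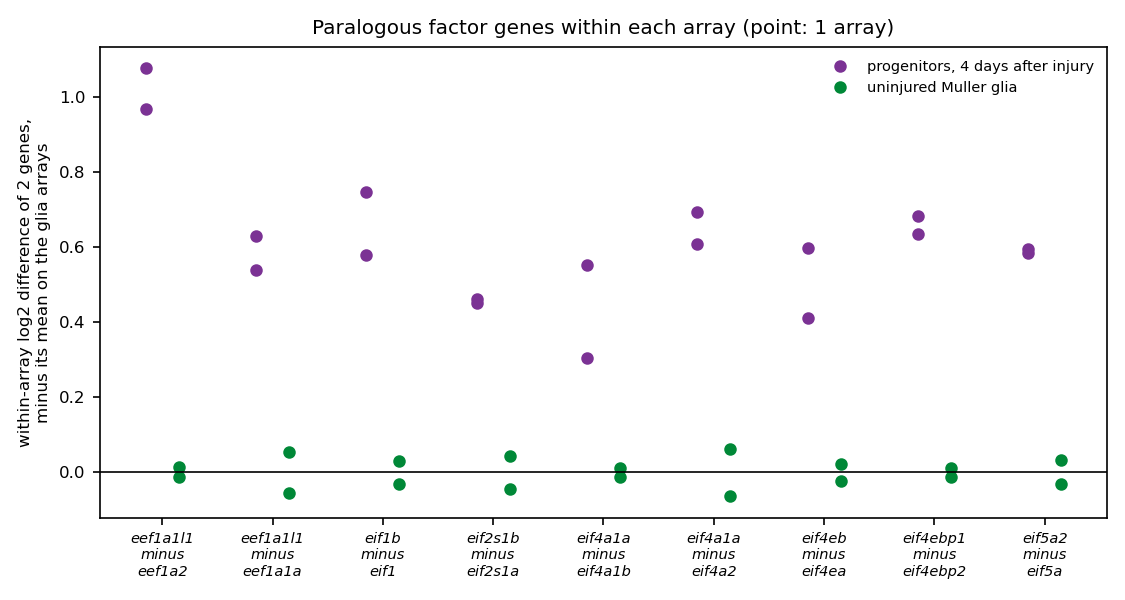
Log2 difference between paralogous factor genes within each array, minus its mean on the glia arrays (y axis), with progenitors left and uninjured glia right in each of 9 pairs (x axis). The order within each pair was chosen so that progenitors are higher, and the group means lie 0.43 to 1.02 apart.

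Other genes of translation, from lists drawn up beside the factors, were measured on the same arrays. Of 14 tested aminoacyl-tRNA synthetase genes, whose enzymes charge tRNAs, 3 rose and 9 fell (median -0.24), beside 27.5% and 40.4% of all genes (median -0.11), with rars1 at 0.27 ± 0.04 and tars1 at -0.38 ± 0.05. Among 4 genes of poly(A) binding, 1 rose (pabpc4, 0.73 ± 0.05) and 3 fell (median -0.33), the last including paip2b at -0.58 ± 0.04, whose product inhibits poly(A)-binding protein. For the hypusine that activates eIF5A, dhps fell (-0.24 ± 0.05) and dohh did not pass (0.13 ± 0.05). In termination and recycling, mcts1 rose (0.20 ± 0.05) and gspt1 fell (-0.32 ± 0.05). The single tested mitochondrial translation gene, mrrf, fell (-0.20 ± 0.05).

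Genes of signalling and stress pathways linked to the factors were also measured. Of 7 tested genes of mTOR and Mnk signalling, none rose and 5 fell (median -0.17), beside 27.5% of all genes higher and 40.4% lower. The list mixes activators and inhibitors, so its count gives no direction of signalling. Those that fell were mknk2a, mknk2b (-0.17), rheb (-0.29) and the inhibitor genes tsc1a (-0.24) and pdcd4b (-0.17). The genes mlst8 (-0.16) and rps6kb1b (0.12) did not pass. The clearest was mknk2a, a kinase that phosphorylates eIF4E, at 3.1 and 3.06 in progenitors and 4.08 and 4.13 in glia (-1.02 ± 0.05, limma adjusted p = 0.000441). Of 3 genes of the integrated stress response, trib3 rose (0.69 ± 0.04), while asns (-0.53 ± 0.05) and atf4a (-0.49 ± 0.05), the central transcription factor of that response, fell. No probe met the naming rule used here as a gene for an eIF2 kinase or for eIF4G, so these were not analysed. The spike-in scaling adds 1.1 to each of these differences and the array-median scaling takes 0.22 from each.

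Markers of other cell types moved between the groups as well. Beside the counts below, 27.5% of all genes tested were higher in progenitors and 40.4% lower, with a median log2 difference of -0.11. The summed level of 12 Muller glia markers, relative to each array's 75th percentile, was 346 to 351 in progenitors and 258 to 263 in glia. Of them 7 rose and 2 fell, rlbp1b (-0.26) and s100b (-1.09), with a median log2 difference of 0.52. The rise of the sum rests heavily on apoeb (log2 signal 6.73 and 6.81 in progenitors, 6.27 and 6.29 in glia) and fabp7a (5.54 and 5.55, against 3.61 and 3.57). That of 15 photoreceptor markers was 534 to 544 in progenitors and 827 to 845 in glia, with all 15 lower (median -0.75). That of 11 microglia and leukocyte markers was 86.2 to 92.5 in progenitors and 36.0 to 36.2 in glia, with 10 higher (median 1.78). Erythrocyte markers (8 tested, 7 lower, median -1.72) summed to 79.4 to 80.8 in progenitors and 112 to 113 in glia, a sum that includes cahz, which is also on the Muller glia list and did not pass (0.14 ± 0.05). Surface epithelium markers (11 tested, 10 lower, 1 higher, median -4.05) summed to 13.4 to 13.6 in progenitors and 25.3 to 25.4 in glia. That sum in progenitors is mostly krt8, the 1 marker that rose, with log2 signals of 3.60 and 3.58 in progenitors and 1.92 and 1.89 in glia. Cycling-cell markers (12 tested, 10 higher, 1 lower, median 3.52) summed to 20.8 to 21.3 in progenitors and 4.79 to 4.83 in glia. The 1 lower was mki67 (-0.43 ± 0.05), and top2a did not pass (-0.003 ± 0.07). Both were dim, with log2 signals in progenitors of -7.00 and -6.92 for mki67 and -5.83 and -5.81 for top2a. Of all the listed markers only hbba2, cldne and esrp2 were not well above background in a whole group, the progenitors. The photoreceptor markers were well above background on all 4 arrays, and the part of each cell type in the differences of the factor genes was not tested.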

How the data were processed

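Per the file headers, the deposited scanner files give linear spot intensity from Feature Extraction 9.5.3.1 (the submitters' processing notes name 9.1), background-subtracted within each array. The deposited values were then put on a log2 scale here, centred on the 75th percentile of their array and averaged over the 2 spots of a probe; control and outlier spots were left out. The deposited series table, an alternative source, holds the background-subtracted intensity of single spots. Probes well above background on both arrays of a group were tested with limma 3.58.1 in R 4.3.3 (data.table, version 1.17.8), with Benjamini-Hochberg adjustment over 16596 probes and a threshold of 0.05. The brightest probe stood for its gene. Errors are standard errors from limma. The number of arrays limits precision; all 4 were on 1 slide with 1 scan. Arrays of a group correlated at 0.997 over probes and arrays of different groups at 0.980 to 0.981. The fit was tested on simulated data.

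Symbols came from RefSeq accessions in the GRCz12tu gene annotation or from older names, and coordinates, on danRer2, from the scanner files. Members, factor groups, 7 lists of related genes and 6 marker lists were chosen with earlier results of these data known. All members could be named, with array values for the largest changes in each group and for chosen family members. Scaling, background correction, filters, probe choice, variance model, left-out arrays and a replicate block were varied. Same-numbered arrays did not deviate together (r = 0.0127 over 7081 genes), so replicate numbers were not used.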

Additional observations from a re-analysis of the deposited data

How the results depend on the processing

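With the array median in place of the 75th percentile, the factor genes split into 14 higher and 13 lower (median -0.039), and 1294 of all genes were higher and 4283 lower; higher genes made up 51.9% of called factor genes, against 83.3% as reported. There the differences of eef1a1l1 (-0.053), eif1axa (-0.22), eif2d (-0.064), eif2s2 (-0.031), eif3s10 (-0.0037), eif4ea (-0.052) and eif5a (-0.039) changed sign. On the spike-in controls, 45 factor genes rose and 0 fell (median 1.28), and 6555 of all genes were higher and 160 lower, 97.6% of calls against 40.5% as reported. There eef1a1a (0.68), eef1a2 (0.25), eef2kmt (1.00), eif1 (0.83), eif2b1 (1.04), eif2b2 (0.84), eif2b3 (0.63), eif4a2 (0.97), eif4a3 (1.03), eif4e3 (0.99), eif4ebp2 (1.06) and eif5 (1.05) changed sign. Quantile normalization gave a median of 0.30. Normexp gave 14 higher and 1 lower with a median of 0.22, and 823 and 1151 of all genes; eef1a2 was the 1 lower. Counting every probe gave 41 of 69 tested higher with a median of 0.22, and those called lower were probes of eif1, eif2b2, eif2b3, eef1a1a and eef1a2. Of all tested probes 65.6% were called in either direction, and their share higher is not given here. Counting only genes named in the files (18, of which 17 were tested) gave 11 higher and 1 lower with a median of 0.27. Beside that count, 27.5% of all genes were higher and 40.4% lower. Both counts have other numbers of members. The cause of the other changes was not tested.

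Leaving out 1 array, 18 to 19 factor genes were higher, 3 to 4 lower and the median was 0.18 to 0.19; 5 fell as reported and 3 did without progenitor array 2. Of all genes, 1615 to 1651 were then higher and 2128 to 2386 lower. With the replicate number as a block, 22 were higher and 5 lower, beside 1797 and 2632 of all genes, and the numbers are names only. The filters on dim probes, the variance trend, the value table and the mean of a gene's probes gave 22 to 28 higher and 5 to 7 lower. In those settings 20.2% to 30.3% of all genes were higher and 28.9% to 44.0% lower. Some alternatives were chosen after seeing the data: the RefSeq probe of eif4ebp3 (24 higher) and the settings for paralog pairs. With 2 arrays a group, a difference that did not pass is not shown to be absent.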
